A study of Mus musculus with 4 samples.

Results

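The genes described are SRF, its cofactor HOPX and 8 further transcription factors that act in heart muscle. They were followed through every probe set whose platform annotation gives 1 gene symbol and whose symbol is Srf, Hopx, Nkx2-5, Gata4, Gata6, Mef2a, Mef2c, Mef2d, Tbx5 or Hand2. Of these 10 genes, 8 had such a probe set, out of 8251 genes with a single-symbol probe set on the array, and they were read by 14 probe sets. Srf and Tbx5 are not analysed here, so the overexpression of SRF was not checked on these arrays. RNA came from the cardiac ventricle of transgenic (TG) mice in which SRF was moderately overexpressed in the heart alone (n = 2) and of non-transgenic (nTG) mice (n = 2), at 6 months of age. The sources used here give neither the strain, nor the promoter that drives the transgene, nor the number of animals behind a sample. Each sample was hybridised to 1 Affymetrix array, and nothing says that the 2 samples of a group are separate animals. The p-values therefore reflect only the spread of these samples, partly pooled across probe sets, and that spread may be technical.

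SRF is a MADS-box transcription factor that binds CArG boxes, short A- and T-rich sites in the promoters of actins, of other contractile genes and of growth-response genes. In heart muscle it works with the homeodomain factor NKX2-5 and the zinc finger factor GATA4 on shared promoters, and it relies on cofactors of the myocardin family. HOPX is a small, atypical homeodomain protein that does not bind DNA. It lies downstream of NKX2-5, associates with SRF, and represses SRF-dependent transcription through the recruitment of histone deacetylase. MEF2A, MEF2C and MEF2D share the MADS box with SRF, bind other A- and T-rich sites and are held in check by class II histone deacetylases. GATA6 is a close relative of GATA4, and HAND2 is a basic helix-loop-helix factor needed for the developing right ventricle.

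Because the gene that the transgene overexpresses binds CArG boxes, the bases before the transcription starts of Srf and Hopx are shown, with those of Nppa (atrial natriuretic peptide) as a target of several of these factors. Each is the 250 bases upstream of a RefSeq start on the strand of the gene, GRCm38.p6, 5′ to 3′. Capitals mark matches, on either strand, to the CArG box and to 3 shorter motifs. The motif searched for NKX2-5 was AAGTG, the motif for zinc finger factors such as GATA4 was GATAA, and the motif for T-box factors was GGTGTG. No match to the MEF2 site was found in these 4 sequences, and none of the marked matches overlap.
Srf, chr17:46556163-46556412, minus strand: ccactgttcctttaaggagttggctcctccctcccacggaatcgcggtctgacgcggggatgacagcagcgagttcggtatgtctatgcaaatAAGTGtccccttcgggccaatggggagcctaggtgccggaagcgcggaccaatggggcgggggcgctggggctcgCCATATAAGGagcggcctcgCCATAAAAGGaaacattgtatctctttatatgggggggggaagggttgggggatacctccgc
Hopx, upstream start, chr5:77115124-77115373, minus strand: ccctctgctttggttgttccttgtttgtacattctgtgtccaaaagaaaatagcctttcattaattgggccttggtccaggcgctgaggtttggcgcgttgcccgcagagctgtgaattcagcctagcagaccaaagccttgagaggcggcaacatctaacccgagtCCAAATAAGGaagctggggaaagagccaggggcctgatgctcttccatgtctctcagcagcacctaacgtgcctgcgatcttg
Hopx, downstream start, chr5:77095268-77095517, minus strand: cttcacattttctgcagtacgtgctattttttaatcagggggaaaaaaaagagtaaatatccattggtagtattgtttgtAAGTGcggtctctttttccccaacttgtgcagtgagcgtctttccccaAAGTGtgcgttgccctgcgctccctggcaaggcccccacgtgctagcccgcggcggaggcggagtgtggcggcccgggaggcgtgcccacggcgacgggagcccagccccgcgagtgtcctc
Nppa, chr4:148000472-148000721, plus strand: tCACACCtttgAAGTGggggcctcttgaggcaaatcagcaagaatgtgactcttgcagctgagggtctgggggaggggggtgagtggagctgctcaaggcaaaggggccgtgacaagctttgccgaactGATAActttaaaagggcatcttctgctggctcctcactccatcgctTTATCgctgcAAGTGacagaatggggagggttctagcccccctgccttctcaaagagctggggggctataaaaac

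The Srf sequence held 2 CArG boxes, CCATATAAGG at 82 to 73 bases and CCATAAAAGG at 62 to 53 bases before the start. The upstream start of Hopx held 1, CCAAATAAGG, at 83 to 74 bases before it. A CArG box was found in 1.47% of 32841 RefSeq promoter windows of this length. The downstream start of Hopx held 2 NKX2-5 motifs and no CArG box, and the Nppa window held 2 NKX2-5 motifs, 2 GATA motifs and 1 T-box motif. The NKX2-5 motif was found in 40.7% of all windows, the GATA motif in 22.6%, the T-box motif in 16.3% and the MEF2 site in 2.92%. The Srf window held 1 NKX2-5 motif besides. RefSeq windows were at hand for 7 of the 10 genes (10 windows), and a CArG box was found for Srf and Hopx among them. A match describes the letters of the window, and the probe set of Hopx was not assigned to either start.

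The arrays had median signals between 49.05 and 54.0 and correlated at 0.981 between the TG arrays and 0.973 between the nTG arrays, against 0.961 to 0.964 across groups (Pearson, log2 signals over probe sets, which are not independent). Of 9 listed ventricular myocyte markers 8 were measured and tested, and all 8 lay at percentile 96.3 of signal or higher. Their summed signal was 58208 and 59982 in TG ventricle, against 76623 and 74643 in nTG ventricle. Hepatocyte markers (8 of 9 measured) summed to 109 and 145 on the TG arrays, against 1699 and 3113 on the nTG arrays, and 4 of 5 tested fell.

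Hopx was the 1 factor of the set that passed the test, and it fell. Its signal was 1803 and 1847 in TG ventricle, against 3116 and 3439 in nTG ventricle. Both TG arrays lay far below both nTG arrays, and the arrays of a group lay close together. Hopx averaged 1825 ± 31.3 in TG and 3277 ± 228 in nTG ventricle (SD, n = 2 each), a 1.79-fold fall. On the log2(signal + 9) scale the change was -0.84 ± 0.079 (SE), with a 95% confidence interval of -1.03 to -0.65 and an adjusted p of 0.00213 (limma, Benjamini-Hochberg over 7453 probe sets). Of those probe sets, 7.93% passed the adjusted p threshold of 0.05 in either direction, 3.86% as lower and 4.07% as higher in TG ventricle. That was 303 higher and 288 lower probe sets, and 397 and 197 after median centring. In the order of all tested changes from the lowest, that of Hopx stood at place 166. With 2 arrays against 2 an exact permutation of a single value cannot give a two-sided p below 0.333, so the call rests on the variance that limma borrows across probe sets. When the variance was moderated without its trend on signal, the fall of Hopx no longer passed (adjusted p = 0.0657 in limma), nor did it in an ordinary two-sample test on the same values (adjusted p = 0.222).

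The summed signal of the ventricular myocyte markers was 1.28-fold lower in TG ventricle, and 5 of its 8 genes fell, but 2 fell after median centring and 1 after quantile normalization. The median log2 change of these 8 markers was -0.27, -0.19 and -0.044 under the 3 scalings, where Hopx had -0.84, -0.76 and -0.79. Quantile normalization gives every array the same set of values, so it constrains changes of the brightest probe sets, these markers among them. The values of Myl2, Tnni3, Myh6 and Atp2a2 under that scaling, given below, share this limit. In bulk tissue, fewer cells of a type and less RNA per cell cannot be told apart, and the part of the myocyte share in the fall of Hopx was not tested. Hopx is also a gene of lung alveolar cells. Lung epithelium markers (5 of 8 measured, 3 of them below the filter on dim probe sets) summed to 142 and 227 on the TG arrays. They summed to 164 and 128 on the nTG arrays, so the sums overlapped. Neither of the 2 tested, Sftpc (log2 change 0.11) and Ager, passed the test, though 1 marker rose under each of the other 2 scalings. Ager had 55.3 and 94.5 in TG ventricle, against 28.9 and 27.0 in nTG ventricle (log2 change 1.14, adjusted p = 0.0563 in limma).

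**Figure D1:**
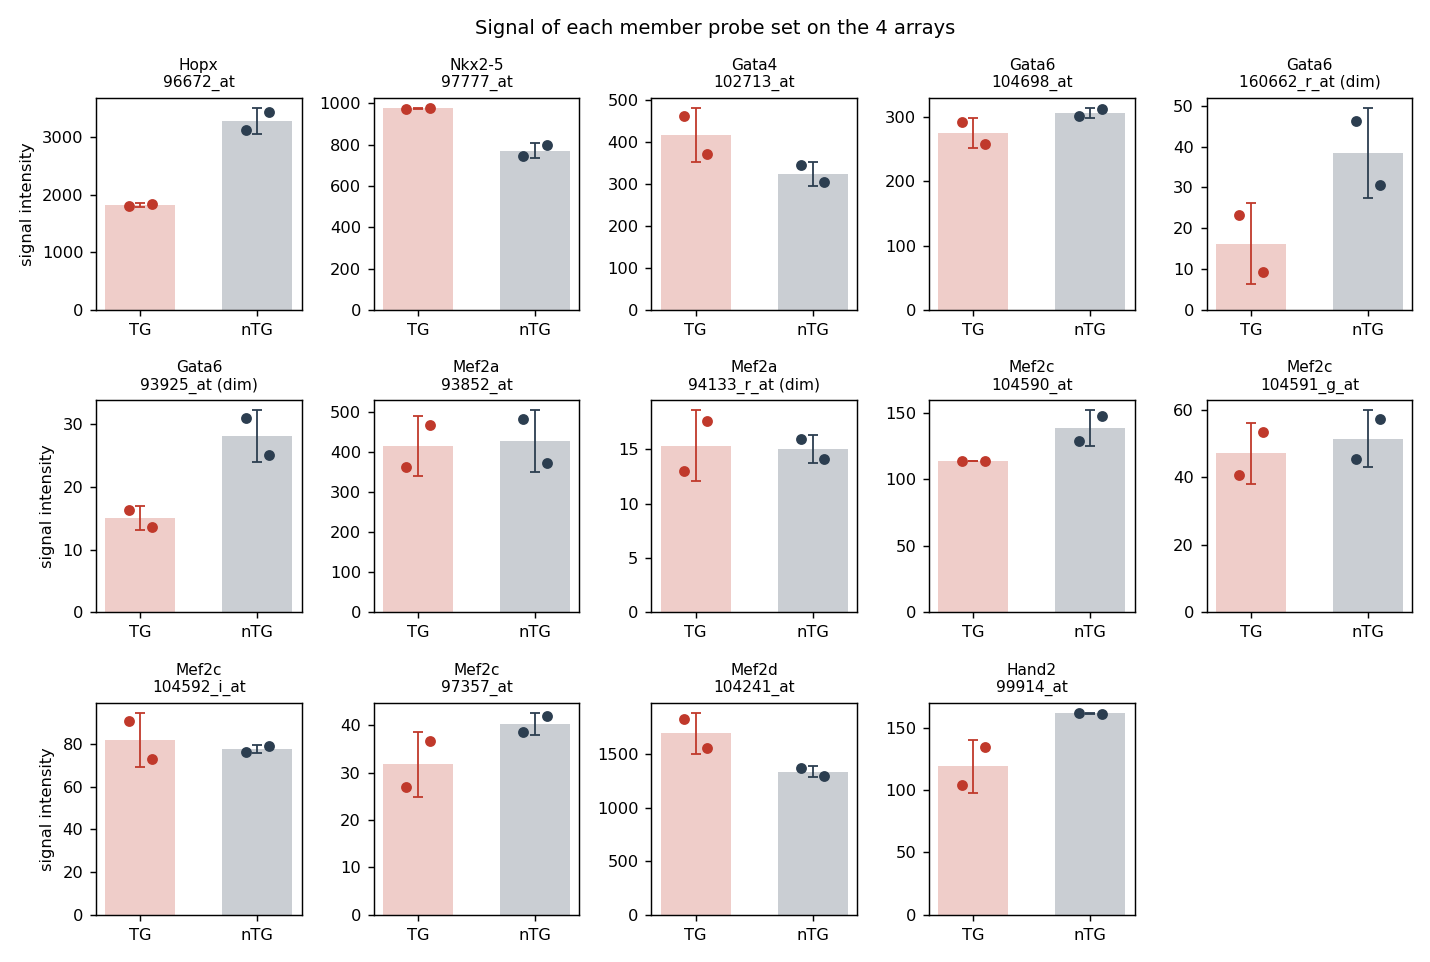
Signal intensity (linear scale from 0) of each of the 14 member probe sets in TG and nTG ventricle. Points are arrays, bars are means and error bars are SD (n = 2 each). Hopx sits at 1803 and 1847 in TG ventricle, against 3116 and 3439 in nTG ventricle, while the other factors differ less or vary more within a group.

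The tested probe sets whose profile over the 4 arrays was nearest to that of Hopx belonged to Fmnl1, Tcea2, Fut7 and Tram1. Nearness was the distance between log2 profiles, each centred on its own mean, and was 0.059 for Fmnl1, 0.078 for Tcea2, 0.093 for Fut7 and 0.094 for Tram1. Tram1, a protein of the translocation channel of the endoplasmic reticulum, had signals of 214 and 203 in TG ventricle, against 345 and 390 in nTG ventricle (log2 change -0.79 ± 0.13). Fmnl1 had 20.9 and 23.2 in TG ventricle, against 44.6 and 48.4 in nTG ventricle, and Fut7 had 31.7 and 34.8, against 62.8 and 65.5. These lay low on the arrays (percentiles 41.3 and 48.5 of signal) and did not pass (adjusted p = 0.096 and 0.076 in limma). Tcea2 and Tram1 passed (adjusted p = 0.029 and 0.015 in limma). Of the tested probe sets 43 (0.577%) lay within a distance of 0.2 of Hopx.

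Nkx2-5, which encodes the homeodomain factor upstream of Hopx in the developing heart, did not pass the test. Its signal was 973 and 976 in TG ventricle, against 745 and 798 in nTG ventricle. The TG arrays lay above the nTG arrays and almost coincided, and the means were 974.9 ± 2.19 and 772 ± 37.8 (SD, n = 2 each). The log2 change was 0.33 ± 0.091, with an interval of 0.12 to 0.55 and an adjusted p of 0.0760 in limma. Under median centring of the arrays the change was 0.41 and passed the test (adjusted p = 0.0481 in limma). Hopx and Nkx2-5 thus had changes of opposite sign, of which only that of Hopx passed.

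Gata4 encodes a zinc finger activator of natriuretic peptide and contractile genes. Its signal was 461 and 371 in TG ventricle, against 344 and 303 in nTG ventricle. The groups did not overlap, but the lower TG array stood nearer to the nTG arrays than to the other TG array. The log2 change of 0.35 ± 0.14 had an interval of 0.0076 to 0.69 and did not pass (adjusted p = 0.198 in limma). It was 0.19 without TG replicate 1 and 0.50 without TG replicate 2.

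Gata6 was read by 3 probe sets, of which 1 was bright enough to be tested. That probe set had 292 and 259 in TG ventricle, against 302 and 312 in nTG ventricle, a log2 change of -0.15 ± 0.13 (interval -0.45 to 0.14, adjusted p = 0.501 in limma). It was -0.24 without TG replicate 1, -0.067 without TG replicate 2 and -0.073 after median centring. The values of all 3 were lower in TG ventricle without overlap, as were 29.0% of all 12422 probe sets, but none passed. The dim probe sets had 23.3 and 9.20 in TG ventricle against 46.2 and 30.6 in nTG ventricle (160662_r_at), and 16.3 and 13.6 against 30.9 and 25.1 (93925_at). In the fit without a filter their log2 changes were -0.95 (interval -1.90 to 0.0049) and -0.63 (interval -1.32 to 0.067), with adjusted p-values of 0.282 and 0.317 in limma. The change of 160662_r_at was -0.53 without TG replicate 2, and with a pseudocount 4 times as large the changes were -0.52 and -0.33. Over all 12422 probe sets of that fit, 2.65% passed in either direction. GATA6 is also made in other tissues, among them the liver, whose markers were higher on the nTG arrays as given above; their part in these values was not tested.

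None of the 3 MEF2 genes passed the test. Mef2d had signals of 1826 and 1555 in TG ventricle, against 1373 and 1299 in nTG ventricle. All TG values lay above all nTG values, and the gap between the nearest arrays of the groups was smaller than the gap between the TG arrays. Its log2 change was 0.33 ± 0.10 (interval 0.097 to 0.57, adjusted p = 0.0981 in limma).

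Mef2c was read by 4 tested probe sets, with log2 changes of -0.26, -0.11, 0.061 and -0.28. The brightest, 104590_at, had 114 and 114 in TG ventricle, against 129 and 148 in nTG ventricle (interval -0.63 to 0.11, adjusted p = 0.354 in limma). The dimmest, 97357_at, had 26.9 and 36.6 in TG ventricle, against 38.6 and 41.9 in nTG ventricle. These 2 did not overlap between groups, and the other two did. Without TG replicate 1 or TG replicate 2, 97357_at gave -0.11 or -0.46. The adjusted p-values of the 4 ran from 0.354 to 0.879, and the sign of 104591_g_at and 104592_i_at turned when an array was left out (0.056 and -0.081 without TG replicate 1). The intervals of all 4 include 0 and leave room for a fall of up to 0.89 on the log2 scale or a rise of up to 0.51.

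Mef2a varied within groups as much as between them. Its bright probe set had 361 and 467 in TG ventricle, against 480.2 and 373 in nTG ventricle. The groups overlapped, the lowest of the 4 values being a TG array and the highest an nTG array, with a log2 change of -0.043 ± 0.17 (interval -0.45 to 0.36). A dim second probe set had 13.0 and 17.6 in TG ventricle, against 15.9 and 14.1 in nTG ventricle, and gave 0.012 in the fit without a filter.

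Hand2 signal was 104 and 134 in TG ventricle, against 162 and 161 in nTG ventricle. Both TG values were lower, while the nTG arrays were nearly equal. The log2 change was -0.42 ± 0.17 (interval -0.82 to -0.020), and the call was not made (adjusted p = 0.188 in limma). The change was -0.25 without TG replicate 1 and -0.59 without TG replicate 2.

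**Figure D2:**
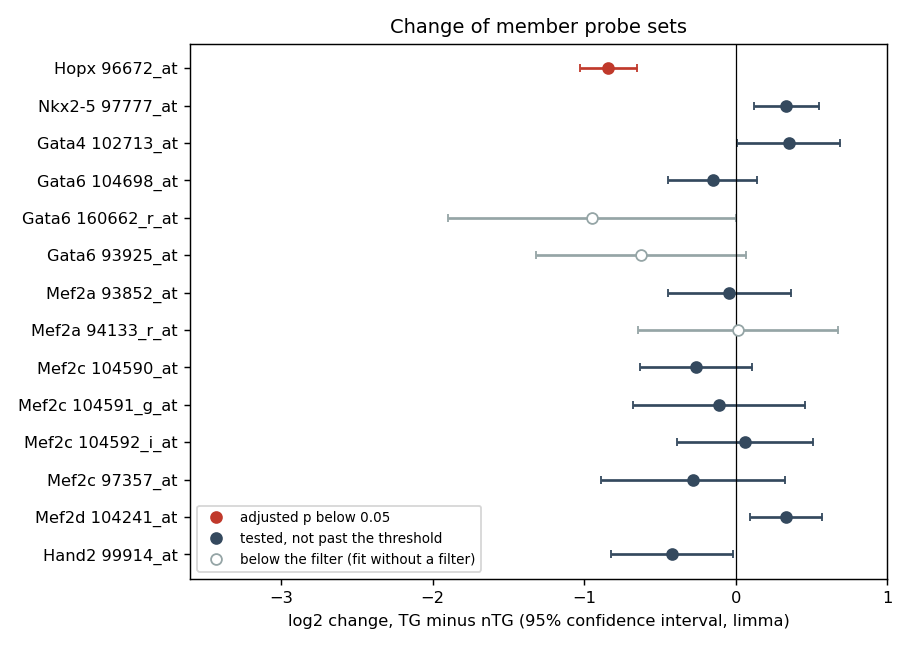
Log2 change (TG minus nTG) of each member probe set with its 95% confidence interval from limma. Hopx, at -0.84, is the 1 probe set past the threshold; open points are dim probe sets, taken from the fit without a filter.

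Over the set, 11 of the 14 probe sets passed the filter on dim signals, covering all 8 measured genes. Of these 11, 1 fell (Hopx), 0 rose and 10 did not pass. The share called, 9.09%, was near the 7.93% of all tested probe sets. An unadjusted p below 0.05 was reached by 5 of the 11 (Hopx, Nkx2-5, Gata4, Mef2d and Hand2), where 24.2% of all tested probe sets reached it. TG and nTG values were without overlap in 8 of the 11, against 55.9% of all tested probe sets. The median log2 change was -0.11 over the 11 tested and -0.13 over all 14, against -0.0092 over all tested probe sets and -0.055 over all 12422. A log2 change beyond 0.5 in size was seen in 1 of the 11 and in 17.3% of all tested probe sets. The largest change in size among the 10 that did not pass was that of Hand2.

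**Figure D3:**
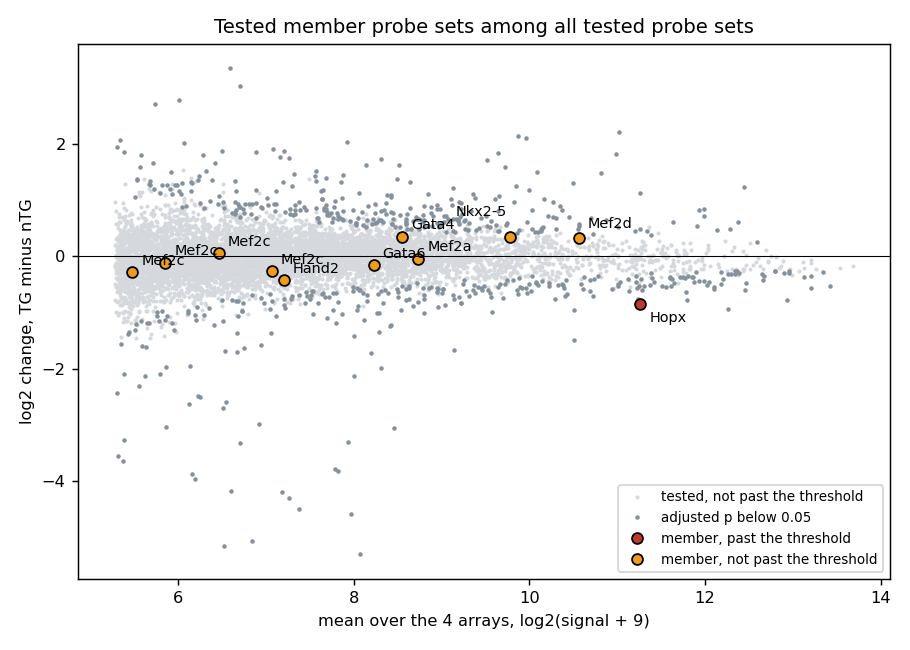
Log2 change (TG minus nTG) against the mean log2(signal + 9) over the 4 arrays for the 7453 tested probe sets, with the 11 tested member probe sets marked. Hopx lies at the lower edge of the bright probe sets, and the other members lie within the cloud of probe sets that did not pass.

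The 5 factors that reached an unadjusted p below 0.05 kept the sign of their change under all 13 alternatives. Few of these could have turned it. Filters, variance models and the block leave the change as it is. Values without overlap also keep their sign under another pseudocount or without 1 array, so only the other scalings could turn it. Nkx2-5 ranged from 0.29 to 0.41, Gata4 from 0.19 to 0.50, Mef2d from 0.22 to 0.45 and Hand2 from -0.59 to -0.25. The lowest adjusted p over these alternatives was 0.0481 for Nkx2-5, 0.134 for Gata4, 0.0609 for Mef2d and 0.149 for Hand2 in limma.

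**Figure D4:**
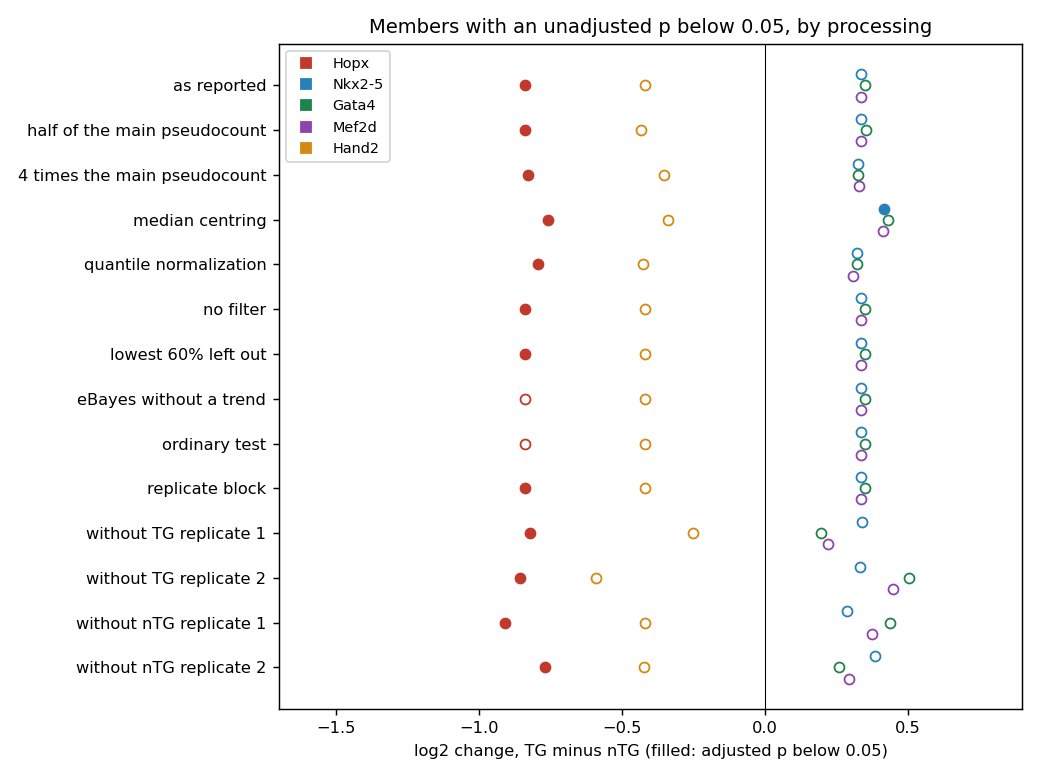
Log2 change (TG minus nTG) of the 5 members with an unadjusted p below 0.05, under each processing alternative. Filled points passed an adjusted p of 0.05. Hopx stays between -0.91 and -0.76, and Nkx2-5 passes in 1 of 13 alternatives.

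The partners of SRF were described next, from a list of cofactors and modulators (myocardin family, ternary complex factors, LIM proteins, coactivators, repressors). Of 17 listed, 14 were measured and 13 tested, of which 2 rose and 0 fell, a share of 15.4% against the 7.93% of all tested probe sets. The median log2 change was -0.015. This list and the lists below were chosen with earlier results of these arrays known. Their shares called therefore describe the lists and are no independent evidence. Csrp2, a LIM protein that bridges SRF and GATA factors in smooth muscle, had 494 and 475 in TG ventricle, against 122 and 188 in nTG ventricle. It rose 3.08-fold (log2 change 1.62 ± 0.20, adjusted p = 0.00551 in limma). Csrp1, its relative, had 296 and 275 in TG ventricle, against 166 and 187 in nTG ventricle. It rose 1.59-fold (adjusted p = 0.0308 in limma), a call lost without TG replicate 1, TG replicate 2 or nTG replicate 1 (adjusted p = 0.137, 0.0723 and 0.0870) or with the dim probe sets kept in (0.0544), while a second probe set rose 1.97-fold. Smooth muscle markers (5 of 6 measured, Cnn1 below the filter) summed to 2108 and 2196 on the TG arrays, against 975 and 1020 on the nTG arrays, and 1 of 4 tested, Acta2, rose. The other tested markers, Tagln, Smtn and Myh11, had log2 changes of 0.16, 0.12 and -0.24, and the median of the 5 measured was 0.16. Without Acta2 the sums were 630.1 and 657 on the TG arrays, against 578 and 589 on the nTG arrays, a ratio of 1.10; their part in the rise of Csrp1 and Csrp2 was not tested. Klf4, a zinc finger factor that opposes SRF with myocardin on smooth muscle genes, had 291 and 397 in TG ventricle, against 214 and 203 in nTG ventricle, and did not pass (log2 change 0.68 ± 0.17, adjusted p = 0.0550 in limma). Klf4 passed after median centring, under a stricter filter (lowest 60% dropped), with the replicate block and without TG replicate 1 (adjusted p = 0.0330, 0.0315, 0.0323 and 0.0262 in limma).

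Genes that control MEF2 factors (class II histone deacetylases, calcineurin and its regulators, calcium/calmodulin and MAP kinases) had 1 higher and 0 lower of 7 tested, with 12 of 16 measured and a median log2 change of 0.053. That was 14.3% called, against 7.93% of all tested probe sets. Rcan1, an inhibitor of calcineurin that calcineurin itself induces, rose 1.48-fold. Its signal was 948.7 and 950.5 in TG ventricle, against 610.0 and 673 in nTG ventricle. The call (adjusted p = 0.0184 in limma) was lost without TG replicate 1, TG replicate 2 or nTG replicate 1 (adjusted p = 0.0636, 0.0541 and 0.0571). Hdac5, a class II deacetylase that binds MEF2, had 640.1 and 671 in TG ventricle, against 722 and 802 in nTG ventricle (log2 change -0.21 ± 0.10, adjusted p = 0.253 in limma). Camk2d, the cardiac delta chain of calcium/calmodulin kinase II, had 38.7 and 49.6 in TG ventricle, against 30.1 and 32.8 in nTG ventricle (log2 change 0.39 ± 0.25, adjusted p = 0.388 in limma).

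Of 41 other transcription factors of heart development listed, 30 were measured and 17 tested, with 3 higher, 0 lower and 14 not past the test. That was 17.6% called, against 7.93% of all tested probe sets, with a median log2 change of 0.049. Meox1, a homeodomain factor found in activated fibroblasts, had 237 and 213 in TG ventricle, against 126 and 95.2 in nTG ventricle, and rose 1.96-fold (adjusted p = 0.0212 in limma). Tcf21, a basic helix-loop-helix factor of epicardial and fibroblast cells, had 202 and 173 in TG ventricle, against 107 and 102 in nTG ventricle, and rose 1.72-fold (adjusted p = 0.0282 in limma). Both rises stood beside fibroblast markers, which rose in 7 of 8 tested cases, Tcf21 itself among them. The other, Pdgfra, had 332 and 298 in TG ventricle, against 523 and 391 in nTG ventricle. Its log2 change was -0.51 and did not pass (adjusted p = 0.106 in limma). The summed signal of the 8 markers was 9325 and 8881 in TG ventricle, against 6031 and 5777 in nTG ventricle, 1.54-fold higher. Without Tcf21 the sums were 9123 and 8708 on the TG arrays, against 5924 and 5675.5 on the nTG arrays, a ratio of 1.54. The part of the fibroblast share in the rise of Meox1 and Tcf21 was not tested.

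Ankrd1, a nuclear and sarcomeric ankyrin repeat protein that acts as a transcriptional cofactor in myocytes, had 6874 and 6586 in TG ventricle, against 5520 and 5716 in nTG ventricle. It rose 1.20-fold (adjusted p = 0.0445 in limma). The calls of Ankrd1 and Tcf21 were lost without any 1 of the 4 arrays (adjusted p of 0.0847 to 0.219 for Ankrd1 and 0.05002 to 0.147 for Tcf21), and that of Meox1 without TG replicate 1 or nTG replicate 2 (0.0753 and 0.0540). With the dim probe sets kept in, none of these 3 passed, at adjusted p-values of 0.153, 0.0579 and 0.0501 for Ankrd1, Tcf21 and Meox1 in limma.

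Target genes known for these factors moved both ways. The 58 listed targets had 50 measured and 46 tested, with 10 higher, 6 lower and 30 not past the test, 34.8% called against 7.93% of all tested probe sets, and a median log2 change of 0.013. These targets were chosen with earlier results of these arrays known, and many are abundant heart muscle transcripts, so the share describes the list and is no independent evidence. Without the variance trend 2 of the 16 were called in limma, Nppa and Acta2. With the dim probe sets kept in, Csrp1, Nppb, Ankrd1, Nr4a1, Myl2, Myh6 and Atp2a2 were not called, and after median centring Myl2, Myh6 and Atp2a2 were not.

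Targets of SRF had 4 higher and 1 lower of 21 tested. Nppa (log2 change 2.14), Acta2 (smooth muscle actin, 1.85), Acta1 (skeletal actin, 0.84) and Csrp1 rose, and Ckm (muscle creatine kinase) fell by 0.72. The part of the smooth muscle and fibroblast shares in the rise of Acta2 was not tested. The median over the 21 was 0.020, and 16 did not pass. The call of Ckm was lost without nTG replicate 2 (adjusted p = 0.0564 in limma). The probe set of Ckm carries the suffix of a gene family, and a dimmer second one did not pass (log2 change -0.65, adjusted p = 0.150 in limma).

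Targets of NKX2-5 had 4 higher and 1 lower of 10 tested. Id2, an inhibitor of basic helix-loop-helix factors that NKX2-5 activates with TBX5 in the conduction system, had 330.0 and 247 in TG ventricle, against 109 and 138 in nTG ventricle. It rose 2.24-fold (log2 change 1.16 ± 0.19, adjusted p = 0.0155 in limma). Nppa, Nppb (log2 change 0.49) and Ankrd1 rose, and Myl2 (ventricular regulatory light chain) fell by 0.28. The call of Nppb was lost without TG replicate 1 or nTG replicate 1 (adjusted p = 0.0681 and 0.0738 in limma). The call of Myl2 was lost without TG replicate 1, nTG replicate 1 or nTG replicate 2 (adjusted p = 0.160, 0.104 and 0.0773 in limma), and after quantile normalization its sign turned (log2 change 0.056).

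Targets of GATA4 had 4 higher and 2 lower of 11 tested. Ccnd2, the cell cycle protein cyclin D2, had 166 and 172 in TG ventricle, against 79.6 and 60.7 in nTG ventricle. It rose 2.27-fold (log2 change 1.18 ± 0.18, adjusted p = 0.0132 in limma). Macrophage markers (7 of 7 measured, 6 tested) summed to 2774 and 2635 on the TG arrays, against 1651 and 1843 on the nTG arrays. Of the 6, 3 rose and 0 fell. The part of the macrophage and fibroblast shares in the rises of Ccnd2, Id2 and Nr4a1 was not tested. Myh7 (beta myosin heavy chain, log2 change 1.23), Nppa and Nppb rose, while Tnni3 (cardiac troponin I) fell by 0.53 and Myh6 (alpha myosin heavy chain) by 0.35. The probe set of Myh7, like that of Ckm, has a gene family suffix, so it can take up signal of related myosin chains. A dimmer second probe set of Myh7, with the same suffix, had 72.9 and 90.2 in TG ventricle, against 37.7 and 28.1 in nTG ventricle. Its log2 change was 1.11 (adjusted p = 0.0344 in limma, and 0.0955 with the dim probe sets kept in). After quantile normalization the changes of Tnni3 and Myh6 were -0.18 and -0.085 and neither passed (adjusted p = 0.117 and 0.507 in limma). The call of Myh6 was lost also without TG replicate 2, nTG replicate 1 or nTG replicate 2 (adjusted p up to 0.0812 in limma).

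Targets of MEF2 factors had 1 higher and 4 lower of 11 tested. Smyd1, a muscle-specific histone methyltransferase that SRF and MEF2C activate, had 675 and 594 in TG ventricle, against 955 and 1194 in nTG ventricle. It fell by 0.75 ± 0.13 on the log2 scale, 1.68-fold (adjusted p = 0.0199 in limma), a call lost without nTG replicate 2 (adjusted p = 0.0553). A dim second probe set of Smyd1 had 23.6 and 38.1 in TG ventricle, against 27.4 and 27.0 in nTG ventricle. Ckm, Myh6 and Myl2 fell too, and Nr4a1, an orphan nuclear receptor of the immediate early class, rose 1.53-fold (adjusted p = 0.0383 in limma). The call of Nr4a1 was lost without TG replicate 1, TG replicate 2 or nTG replicate 2 (adjusted p = 0.147, 0.0781 and 0.105 in limma).

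Of 4 tested targets of TBX5, Nppa rose and Atp2a2 (the calcium pump of the sarcoplasmic reticulum) fell by 0.30, a call lost without any 1 of the 4 arrays (adjusted p up to 0.171 in limma). It was lost also after median centring (log2 change -0.22, adjusted p = 0.129), after quantile normalization (-0.16, adjusted p = 0.166) and with the dim probe sets kept in (adjusted p = 0.131). Gja5, the atrial and conduction system connexin, had 53.7 and 64.5 in TG ventricle, against 89.7 and 103 in nTG ventricle, and did not pass (log2 change -0.63 ± 0.19, adjusted p = 0.102 in limma). Among atrial markers, which hold both Nppa and Gja5, Nppa and Myl7 rose and Sln was below the filter. Myl4 (log2 change 0.92, adjusted p = 0.0635 in limma) and Gja5 had changes of opposite sign, and neither passed. The atrial markers other than Nppa summed to 1146 and 971 on the TG arrays, against 441 and 661 on the nTG arrays, 1.92-fold higher, and their part in the rise of Nppa was not tested.

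**Figure D5:**
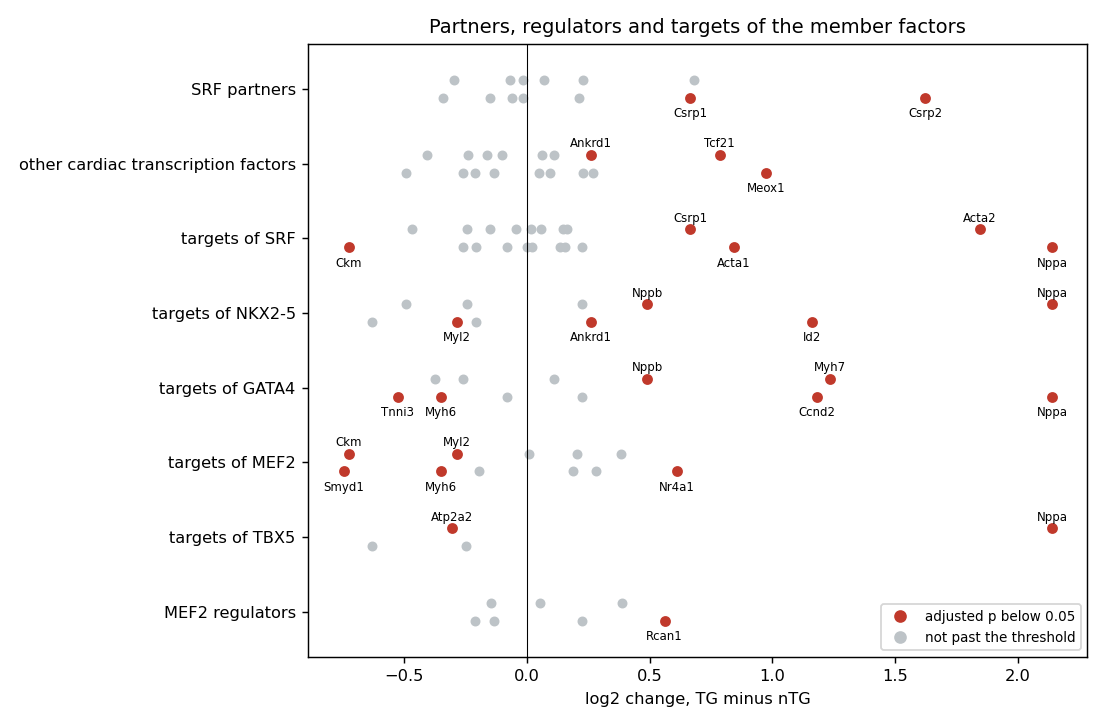
Log2 change (TG minus nTG) of the tested genes in each list of partners, regulators and targets, 1 probe set per gene; a gene may stand in several lists. Red points passed the threshold and are named. Rises and falls stand side by side in the target lists of SRF, NKX2-5, GATA4, MEF2 and TBX5.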

How the data were processed

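RNA from 4 ventricle samples was hybridised to Affymetrix arrays after biotin labelling, per the labels' protocols. The deposited values are 1 signal intensity per probe set and array, linear, above 0 and given to 1 decimal; the sources used here name no signal software or scaling. The mean without the extreme 2% at each end was 150.1 on every array, as a scaling of all arrays to 1 target would give. Global scaling hides a change shared by most RNA, and the number of arrays limits precision. Of 12488 probe sets, 66 controls were left out, 10833 had 1 gene symbol by the platform annotation, 396 had several and 1193 were not listed.

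Values were taken as log2(signal + 9), 9 being the 20th percentile of the signals, rounded, which understates changes of dim genes. Probe sets in the lowest 40% of mean signal were dropped, and 7453 were tested two-sided with limma 3.58.1 under R 4.3.3 (lmFit, and eBayes with a variance trend). P-values were adjusted by Benjamini-Hochberg, with a threshold of 0.05. The prior had 5.05 degrees of freedom. The members and gene lists were chosen with earlier results of these data known. All member probe sets were named; from each list, the genes past the threshold and, where fewer than 3 passed, those with the smallest p up to 3. For a gene outside the members the brightest probe set was used. As genes with a pattern like that of Hopx, the 4 nearest were named. Same-numbered arrays did not deviate together (correlation of deviations -0.051), which does not settle whether the numbers pair samples. Alternatives were other pseudocounts, scalings, filters and variance models, a replicate block, and leaving out each array.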

Additional observations from a re-analysis of the deposited data

How the results depend on the processing

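Hopx had log2 changes of -0.91 to -0.76 over the 13 alternatives, of which only the other scalings could have turned its sign. It kept its call in 11, with adjusted p = 0.0657 in limma without the variance trend and 0.222 in the ordinary test. Leaving out each array in turn gave Hopx -0.91 to -0.77 (adjusted p up to 0.00946). Nkx2-5 passed after median centring, so that 2 member probe sets were then called. In limma without the trend 0 members were called (3 of 11 at an unadjusted p below 0.05) and in the ordinary test 0 (2 of 11). With each array left out in turn, 1 was called each time. Mef2a (93852_at) turned to 0.037 after median centring and ranged from -0.22 to 0.14 without single arrays, above 0 without TG replicate 1 or nTG replicate 1. Without single arrays Mef2c ranged from -0.28 to 0.056 (104591_g_at, above 0 without TG replicate 1 or nTG replicate 2) and from -0.081 to 0.20 (104592_i_at, below 0 without TG replicate 1), and Myl2 turned to 0.056 after quantile normalization.

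Over all probe sets, 303 were higher and 288 lower in TG ventricle. Without a filter the counts were 172 and 157, without the trend 44 and 34, and in the ordinary test 0 and 0 (1175 had an unadjusted p below 0.05, against 1802 in limma with the trend). Median centring gave 397 and 197. Leaving out each array gave 125 to 232 higher and 158 to 191 lower. The replicate block gave 348 and 345 and called 1 member. Whether the numbers pair samples is not known. SRF partners called were 2, with 3 after median centring, with the lowest 60% left out and with the block, 1 without a filter, 0 without the trend or moderation, and 1 to 2 without single arrays. Other cardiac transcription factors called were 3, with 0 under each of those 3 fits and 0 to 1 without single arrays. Target genes called were 16, with 9 without a filter, 2 without the trend, 0 in the ordinary test and 9 to 11 without single arrays. Of the MEF2 regulators 1 was called, with 0 without the trend, 0 in the ordinary test and 0 to 1 without single arrays. The causes were not tested, beyond fewer arrays and more dim probe sets in the fits so built. A member that does not pass with 2 arrays a group is not shown to be unchanged.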
